A study of Homo sapiens with 6 samples.

Results

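Fibrinogen and coagulation genes were followed in A549 cells, a human lung adenocarcinoma line, after exposure to recombinant human surfactant protein D (rhSP-D), a secreted collectin of the airspace. The set held 9 genes, FGA, FGB, FGG, F3, F5, TFPI, PROS1, SERPINA1 and SERPINA3, chosen by symbol and all found among the 57773 genes of the deposited count table. One group of 3 samples received rhSP-D at 10 µg/ml for 48 h, and the other group of 3 received, for the same time, an equal amount of the SP-D elution buffer without the protein (vehicle). Both groups were grown in RPMI-1640 with 10% fetal bovine serum and 1% penicillin-streptomycin, so all 6 samples were exposed to serum, and all came from a single established line. Whether the replicates were separate cultures is not stated, and the p-values therefore reflect only how far these samples varied, which may be technical.

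Fibrinogen is the soluble plasma protein that thrombin converts to fibrin, the mesh of a clot, and it is assembled from the α, β and γ chains that FGA, FGB and FGG encode. Hepatocytes are its main source, where the 3 neighbouring genes are kept on by liver-type transcription factors and are induced in the acute phase by interleukin-6 (IL-6) through the receptor subunit gp130 and STAT3. Epithelial cells of the lung can make it too when stimulated. Tissue factor (F3) starts clotting and coagulation factor V (F5) is the cofactor that speeds thrombin formation, while tissue factor pathway inhibitor (TFPI) and protein S (PROS1) restrain them. SERPINA1 and SERPINA3 encode α1-antitrypsin and α1-antichymotrypsin, protease inhibitors that, like fibrinogen, are acute phase proteins of the liver.

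The chain genes lie together on chromosome 4, and the sequences before their starts are shown because they are the regulatory stretches nearest to the most abundant members. Each is the 250 bases before a RefSeq transcription start (GRCh38.p14), printed 5′ to 3′ along the gene's own strand. Capitals mark CTGGGA, the core of the IL-6 response element, which was searched on both strands (on the other strand TCCCAG).
FGA, chr4:154590743-154590992, minus strand: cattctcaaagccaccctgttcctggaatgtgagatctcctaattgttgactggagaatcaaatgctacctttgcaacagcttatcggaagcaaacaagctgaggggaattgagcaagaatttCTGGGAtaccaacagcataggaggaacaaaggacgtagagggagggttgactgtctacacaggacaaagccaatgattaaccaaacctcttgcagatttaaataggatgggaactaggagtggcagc
FGB, first of its starts, chr4:154562730-154562979, plus strand: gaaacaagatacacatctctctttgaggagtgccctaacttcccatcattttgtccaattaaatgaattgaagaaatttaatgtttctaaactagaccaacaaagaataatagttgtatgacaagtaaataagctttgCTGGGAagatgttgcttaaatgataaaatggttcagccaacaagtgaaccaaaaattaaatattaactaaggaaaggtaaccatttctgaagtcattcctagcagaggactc
FGG, chr4:154612657-154612906, minus strand: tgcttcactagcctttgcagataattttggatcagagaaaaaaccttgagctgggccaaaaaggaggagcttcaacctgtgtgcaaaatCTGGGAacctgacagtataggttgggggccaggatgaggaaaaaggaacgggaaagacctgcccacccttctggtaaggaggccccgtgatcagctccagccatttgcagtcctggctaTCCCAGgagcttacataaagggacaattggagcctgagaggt

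CTGGGA stood at positions -127 to -122 counted from the start in FGA and at -112 to -107 in FGB. The FGG stretch held it at -161 to -156 and again on the reverse strand at -42 to -37. Among 35116 RefSeq windows of 300 bases (250 before the start and 50 from it), 33.3% held CTGGGA, against 7 of the 11 windows of the 9 genes, of which 2 are overlapping windows of FGB. The AP-1 motif TGANTCA, in 7.71% of all windows, was found in F3 alone of the 9 genes, at -223 to -217 and -210 to -204. These matches describe letters only, and no binding was measured.

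Counts over genes totalled 11396193 to 19803697 with vehicle and 18599955 to 26030880 after rhSP-D, with a biological coefficient of variation of 2.51%. The TMM factors ran from 1.01088 to 1.0168 with vehicle and from 0.984801 to 0.987054 after rhSP-D, without overlap. The 9 epithelial and alveolar markers summed to 12000 to 12120 CPM (counts scaled to one common library size after TMM normalization) with vehicle and 12510 to 12740 CPM after rhSP-D. KRT8, KRT18 and KRT7 averaged 5044, 4125 and 2721 CPM in vehicle, whereas KRT19 averaged 1.83 CPM, EPCAM 1.82 CPM, and the alveolar markers NKX2-1, SFTPB and SFTPC had 0 to 6 counts in each library. Among markers of other cells, the leukocyte gene PTPRC had 0 or 1 count, the endothelial gene CDH5 0 or 1 and the platelet genes GP9 and TREML1 0 in every library, while CD68 averaged 84.4 CPM in vehicle, CD14 3.90 and GP1BA 3.45. The summed leukocyte list ran from 85.1 to 90.6 CPM with vehicle and from 93.3 to 98.5 CPM after rhSP-D, nearly all of it CD68. The summed endothelial list was 1.79 to 2.60 CPM with vehicle and 2.15 to 2.96 CPM after rhSP-D, and the summed platelet list 19.9 to 21.3 and 17.6 to 21.5 CPM, most of it ITGB3. The 7 fibroblast markers summed to 10.9 to 14.9 and 13.4 to 14.2 CPM, most of it COL1A1, with DCN at 0 in every library. These marker genes were named after their values were seen.

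The fibrinogen chains were among the most abundant transcripts of vehicle-treated A549 cells, and the other 6 genes were far lower. To compare genes with each other, counts were divided by the length of all merged exons and scaled like TPM values, to the same total in every library. In vehicle, the level per length was 1003.5 ± 14.3 TPM for FGA, 755.8 ± 0.623 for FGB and 633.3 ± 5.88 for FGG (SD, n = 3), which ranked 97th, 146th and 180th among all genes with a length. PROS1 followed at 25.7 ± 1.38 TPM, TFPI at 19.3 ± 0.0412 and F5 at 16.8 ± 0.947. F3 stood at 5.47 ± 0.664 TPM, SERPINA1 at 1.77 ± 0.362 and SERPINA3 at 0.663 ± 0.0963. The 3 vehicle values of each gene did not overlap those of the next gene in this order. The order of the chains rested on the length used: per length of the longest transcript, FGG came first at 843.2 TPM, then FGA at 810.9 and FGB at 778.5, and the order of the other 6 genes stayed as given.

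**Figure D1:**
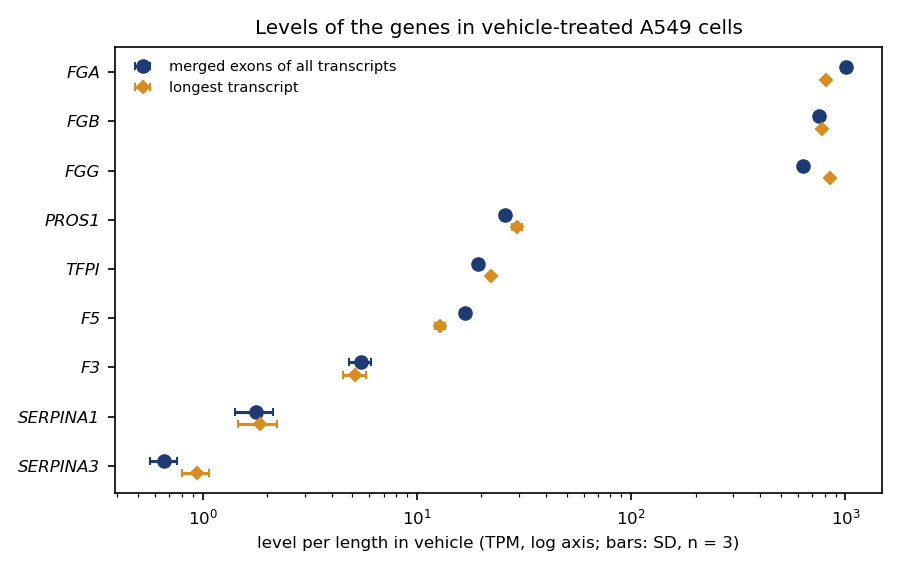
Level per length (TPM, log axis) of the 9 genes in the 3 vehicle samples, as mean and SD, with lengths from merged exons (circles) and from the longest transcript (diamonds). The 3 fibrinogen chains lie between 633.3 and 1003.5 TPM with merged exons, and the next gene, PROS1, lies at 25.7 TPM.

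The chains made up 94.2 ± 0.118% of the counts of the 9 genes in vehicle against 94.5 ± 0.225% with rhSP-D (SD, n = 3). As a share of all counts in a library they took, in replicate order, 0.261, 0.266 and 0.264% of vehicle libraries against 0.258, 0.260 and 0.267% of rhSP-D libraries. Counting error was small beside these values but not beside their range over the libraries, 0.258 to 0.267%. In the shallowest library, vehicle replicate 1, the exact 95% binomial interval was 0.258 to 0.264%. Such intervals cover counting error only. The shares of the groups overlapped. Within the chains, FGA gave 41.9 ± 0.350% of the level per length in vehicle, FGB 31.6 ± 0.217% and FGG 26.5 ± 0.235%, and in rhSP-D the shares were 41.5 ± 0.152%, 31.8 ± 0.0524% and 26.8 ± 0.157%. Per longest transcript they were near equal in vehicle, at 33.3, 32.0 and 34.7%.

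Exposure to rhSP-D was compared with vehicle in one fit over all genes, to ask whether transcripts of the clotting system differed after it. By edgeR's quasi-likelihood test, 0 of the 9 genes changed at a Benjamini-Hochberg adjusted p under 0.05, where 15.9% of the 15848 tested genes did, 9.31% higher and 6.63% lower in rhSP-D. DESeq2 called 0 of the 6 members to which it gave an adjusted p, and limma-voom called 0 of 9. At an unadjusted p under 0.05 stood 3 members, FGB, FGG and PROS1, beside 28.1% of all genes. For 4 members, FGB, FGG, TFPI and SERPINA3, the 3 values of a group lay all on one side of the other group's, beside 31.5% of all genes. The median change of the 9 genes was -0.03 on the log2 scale, and that of all tested genes was -0.01. All 9 passed the filter on low counts. In such bulk samples, fewer cells that make a transcript and less of it per cell cannot be told apart.

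**Figure D2:**
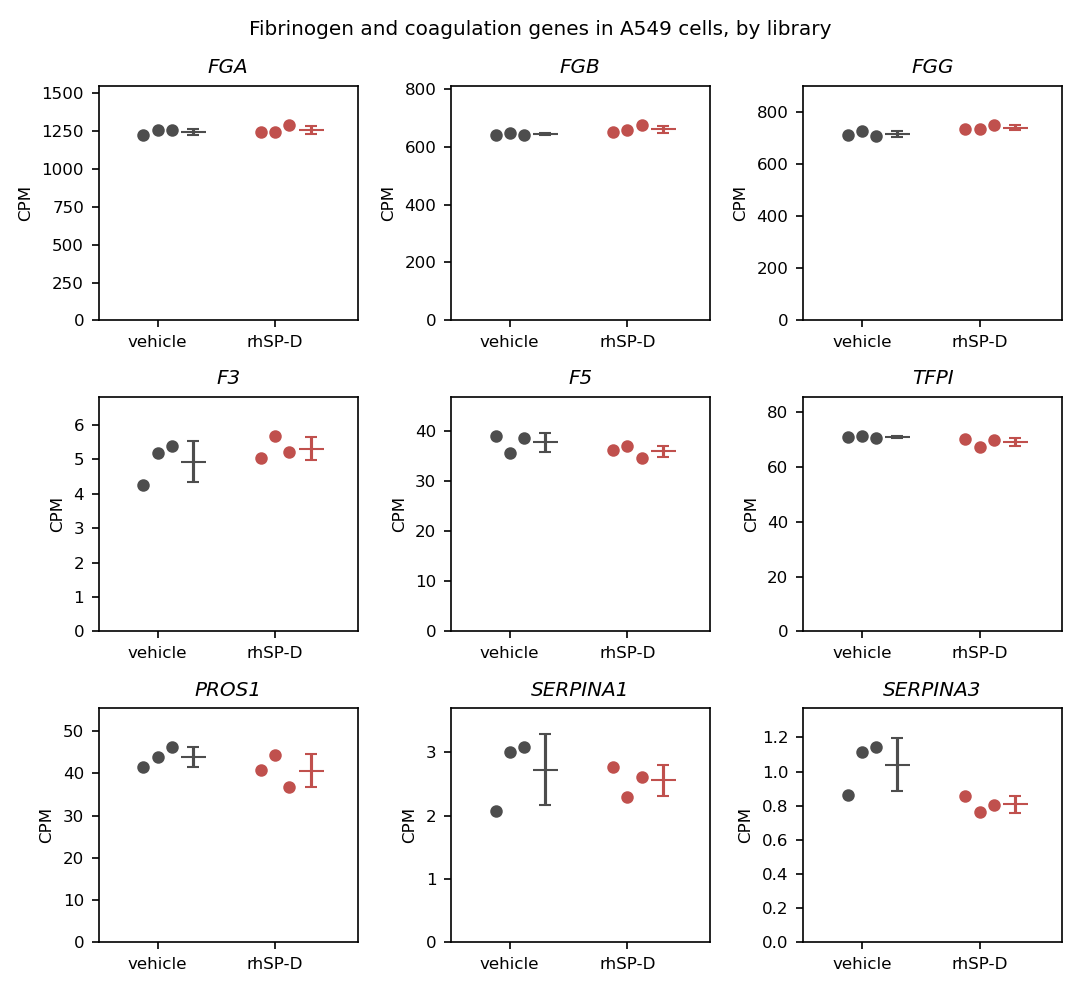
CPM of each of the 9 genes in the 3 vehicle (grey) and 3 rhSP-D (red) samples, one point per library, with the mean and SD beside them and axes that start at 0. The groups lie close together for the fibrinogen chains, with FGB averaging 642.1 CPM with vehicle against 660.5 with rhSP-D. The rarest gene, SERPINA3, averages 1.04 CPM with vehicle and 0.809 with rhSP-D, and its points spread from 0.763 to 1.14 CPM.

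FGA, the gene of the α chain, from which thrombin releases fibrinopeptide A, occupies chromosome 4 from 154583126 to 154590766 on the minus strand (GRCh38, GENCODE 29). Its values were 1221.8, 1259.7 and 1255.1 CPM in vehicle replicates 1 to 3 and 1242.5, 1244.5 and 1289.5 CPM after rhSP-D replicates 1 to 3. The groups overlapped, with vehicle replicate 1 lowest and rhSP-D replicate 3 highest. The log2 change was 0.01 ± 0.0173 (SE; adjusted p = 0.646 by edgeR's quasi-likelihood test), and its 95% interval ran from a 1.45% decrease to a 3.52% increase. The direction of this difference was not fixed, at -0.03 with library totals in place of TMM factors and at -0.00475 without rhSP-D replicate 3.

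FGB, the gene of the β chain, lies at 154562956 to 154571086 of chromosome 4 on the plus strand. Vehicle replicates 1 to 3 had 640.2, 646.0 and 640.2 CPM, and rhSP-D replicates 1 to 3 had 651.1, 656.0 and 674.3 CPM. All 3 rhSP-D values lay above the vehicle values, by a mean of 2.83% with a 95% interval of 0.211 to 5.53%, which did not pass the threshold (adjusted p = 0.14 by edgeR's quasi-likelihood test). With library totals in place of TMM factors the groups overlapped, and the difference was -0.000678 on the log2 scale.

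FGG encodes the γ chain, which carries sites for the cross-linking of fibrin, and lies at 154604134 to 154612967 of chromosome 4 on the minus strand. It had 710.4, 727.8 and 707.6 CPM with vehicle and 732.4, 735.8 and 749.2 CPM after rhSP-D, in replicate order. The lowest rhSP-D value was above the highest vehicle value, and the difference was 3.31% (95% interval 0.729 to 5.96%; adjusted p = 0.0718 by edgeR's quasi-likelihood test). On the log2 scale the difference of 0.05 passed without vehicle replicate 2, at 0.06 (adjusted p = 0.0272). With library totals the groups overlapped, and it was 0.00601 (adjusted p = 0.861).

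Adjusting for gene length and GC content changed the calls of the chains. When trends over exonic length and GC content were removed from each library, all 3 chains passed: FGA at 0.05 (adjusted p = 0.0298), FGB at 0.06 (adjusted p = 0.0157) and FGG at 0.09 (adjusted p = 0.000359) on the log2 scale in the same edgeR test. Of all 15347 genes tested in that fit, 1241 were called higher and 435 lower, with a median log2 change of 0.00811. The removed trend amounted to -0.04, -0.02 and -0.04 for FGA, FGB and FGG, within -0.12 to 0.21 over all genes. In the opposite direction, the sum of the 3 levels per length, which takes no TMM factor, averaged 2393 ± 15.8 TPM in vehicle and 2324 ± 41.6 TPM in rhSP-D. So the sign of a difference of this size depended on the scaling, and the part of length and GC content in it was not tested further.

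The count ratio of 2 chains does not depend on a factor that scales a whole library. The length and GC trends differ by gene, at -0.0389 for FGA, -0.0215 for FGB and -0.043 for FGG (log2, rhSP-D minus vehicle). They were left in these ratios. The count of FGA was 1.909, 1.95 and 1.961 times that of FGB with vehicle against 1.908, 1.897 and 1.912 times with rhSP-D, in replicate order. FGG stood to FGB at 1.11, 1.127 and 1.105 with vehicle against 1.125, 1.122 and 1.111 with rhSP-D. The groups overlapped in both ratios. Of 4 ratios of members tested with a 2-sided exact permutation test, whose smallest possible p with 3 against 3 is 0.1, FGA to FGB gave p = 0.2 (0.4 adjusted over the 4 ratios) and FGG to FGB p = 0.6 (0.6 adjusted).

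Tissue factor, the membrane protein that binds factor VII and starts clotting, was transcribed at a low level from F3 (chromosome 1, 94529225 to 94541800, minus strand). F3 had 49, 93 and 108 counts with vehicle and 129, 104 and 104 after rhSP-D, which is 4.24, 5.19 and 5.37 CPM against 5.04, 5.67 and 5.22 CPM. The groups overlapped and vehicle replicate 1 was lowest. The difference was 6.16%, with an interval from a 13.4% decrease to a 30.1% increase (adjusted p = 0.755 by edgeR's quasi-likelihood test).

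F5, whose product becomes the cofactor of factor X in the complex that makes thrombin, lies on chromosome 1 from 169514166 to 169586588 on the minus strand. It had 38.9, 35.5 and 38.6 CPM with vehicle and 36.1, 36.9 and 34.6 CPM after rhSP-D. These ranges overlapped. The difference was -4.47%, with an interval of -11.2 to 2.77% (adjusted p = 0.446 by edgeR's quasi-likelihood test), and with length and GC trends removed the log2 difference was 0.00115.

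TFPI, which blocks the complex of tissue factor and factor VII, lies on chromosome 2 from 187464230 to 187565760 on the minus strand, and 118 nt of its exons overlap the antisense gene AC007319.1. Its values were 70.8, 71.3 and 70.5 CPM with vehicle and 70.2, 67.5 and 69.8 CPM after rhSP-D. The highest rhSP-D value fell just under the lowest vehicle value. The difference of -2.26% was within its interval of -7.22 to 2.97% (adjusted p = 0.614 by edgeR's quasi-likelihood test), and with trends removed it was 0.08 on the log2 scale. The ratio of F3 to TFPI counts, which sets the initiator against its inhibitor, was 0.0599 to 0.0762 with vehicle and 0.0718 to 0.0841 after rhSP-D. The groups overlapped (exact permutation p = 0.5, 0.6 adjusted over the 4 ratios). This count ratio keeps the length and GC trends, which were -0.0163 for F3 and -0.108 for TFPI (log2, rhSP-D minus vehicle).

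PROS1 encodes protein S, a cofactor of activated protein C and of TFPI and a ligand of the TAM receptors, and lies on chromosome 3 from 93873033 to 93980003 on the minus strand. It had 41.6, 43.9 and 46.2 CPM with vehicle and 40.8, 44.4 and 36.7 CPM after rhSP-D. The groups overlapped, since rhSP-D replicate 2 exceeded vehicle replicates 1 and 2. The difference was -8.17% with an interval of -15.6 to -0.0663% (adjusted p = 0.174 by edgeR's quasi-likelihood test). Against -0.12 with all libraries on the log2 scale, PROS1 passed without rhSP-D replicate 2 at -0.18 (adjusted p = 0.0321), while it stood at -0.06 without rhSP-D replicate 3 (adjusted p = 0.562), at -0.08 without vehicle replicate 3 (adjusted p = 0.536) and at -0.05 with length and GC trends removed (adjusted p = 0.666). The row of its pseudogene PROSP was 0 in all 6 libraries.

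**Figure D3:**
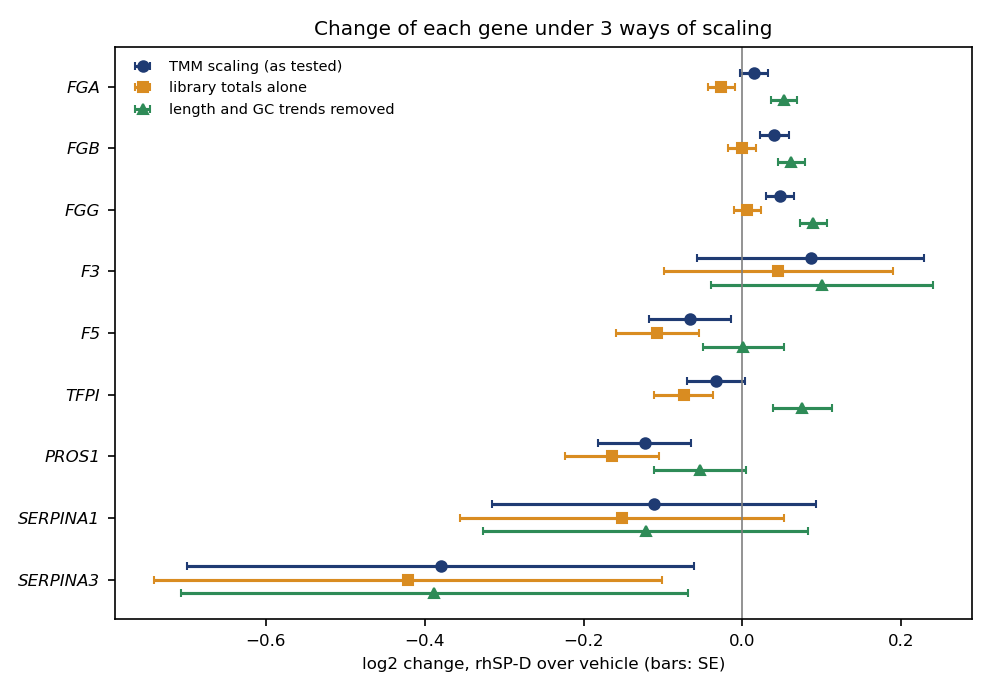
Log2 change of each gene, rhSP-D over vehicle, with its SE, under TMM scaling (circles), library totals alone (squares) and with length and GC trends removed (triangles). FGA and FGB lie on either side of 0 depending on the scaling, F5 and TFPI cross 0 when the trends are removed, and SERPINA3 has the widest bars.

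The acute phase serpins were the lowest of the 9 genes per length. SERPINA1 (chromosome 14, 94376747 to 94390693, minus strand), the inhibitor of neutrophil elastase, was counted 24, 54 and 62 times with vehicle and 71, 42 and 52 times with rhSP-D. The groups overlapped at 2.08 to 3.08 CPM and 2.29 to 2.77 CPM, and the interval of the difference ran from -30.7 to 23.7% (adjusted p = 0.784 by edgeR's quasi-likelihood test). SERPINA3 (chromosome 14, 94612377 to 94624055, plus strand), an inhibitor of cathepsin G and chymase, was counted 10, 20 and 23 times with vehicle and 22, 14 and 16 times with rhSP-D. In CPM these were 0.865, 1.12 and 1.14 against 0.859, 0.763 and 0.803, so the rhSP-D values lay just below the vehicle values. The estimate of -23.2% for this gene had an interval from -51.2 to 20.9% (adjusted p = 0.483 by edgeR's quasi-likelihood test). In the annotation, 1592 of the 5007 nt of SERPINA3 exons are shared with a gene on the same strand, AL049839.2, listed at 0 in all 6 libraries. How reads over shared exons were counted is not given, so the counts and the level per length of SERPINA3 may be too low. The SERPINA1 to SERPINA3 count ratio was 2.4 to 2.7 with vehicle and 3 to 3.25 with rhSP-D, without overlap, which gave the smallest p that the exact permutation test allows (p = 0.1, 0.4 adjusted over the 4 ratios).

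Many genes next to the clusters had no counts, as did 29796 of all 57773 genes in the table. Within 250 kb of the fibrinogen genes, 13 further genes were in the table, 8 of them at 0 in every library, and 2 passed the filter, with 0 called by edgeR. Around the SERPINA genes, 17 were in the table, 9 at 0 in every library, and 1 passed the filter, with 0 called. Those tested were PLRG1 at 2.06% (adjusted p = 0.697), LRAT at -1.16% (adjusted p = 0.983) and SERPINA6 at -24.8% (adjusted p = 0.203) by edgeR's quasi-likelihood test, and none had an unadjusted p under 0.05.

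Other genes of the clotting system, the acute phase and its control were read from lists. There were 107 such genes, 66 passed the filter, and of these 8 rose and 4 fell, or 18.2%, beside 15.9% of all genes; their median log2 change was -0.00639. With library totals in place of TMM factors the calls were 3 higher and 9 lower, and those of all genes went from 1475 higher and 1051 lower to 856 higher and 1961 lower, with the median of all genes at -0.05 on the log2 scale. The calls of TGM2 (adjusted p = 0.612), VKORC1 (0.0596), FURIN (0.217), VTN (0.107) and IL6 (0.0572) were lost under that scaling. Those of VKORC1 (0.144), FURIN (0.0945) and VTN (0.0815) were lost with counts thinned once at random to the shallowest library. The 12 changes were all under 1.5-fold.

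Among 14 procoagulant genes 8 were tested and 1 rose: TGM2, a transglutaminase that cross-links proteins, by 3.76%, from 1950.1 to 2023 CPM (adjusted p = 0.011 by edgeR). Leaving out vehicle replicate 3 or rhSP-D replicate 2 also ended the TGM2 call, with adjusted p of 0.051 and 0.069. Of 12 anticoagulant genes 5 were tested and 1 rose. This was TFPI2, a Kunitz-type inhibitor related to TFPI, with 422.0, 411.2 and 396.3 CPM with vehicle and 453.1, 463.2 and 467.5 CPM after rhSP-D, without overlap. TFPI2 rose by 12.7% (log2 change 0.17 ± 0.0218, SE; adjusted p = 1.29e-06 by edgeR) and was called under all 17 alternatives. Of the 7 receptors for thrombin and protein S, 5 were tested and 0 were called by edgeR, with 1 at an unadjusted p under 0.05.

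All 8 genes for the synthesis and export of clotting proteins were tested, and 2 rose and 1 fell. LMAN1, the cargo receptor that carries factors V and VIII out of the endoplasmic reticulum, fell by 9.80%, from 143.8 ± 3.65 to 130.04 ± 4.68 CPM (SD, n = 3; adjusted p = 0.000807 by edgeR). VKORC1, which recycles vitamin K for the carboxylation of protein S and other factors, rose by 9.37% (adjusted p = 0.00629), and FURIN, a proprotein convertase, rose by 6.07% (adjusted p = 0.0142). With length and GC trends removed none of these 3 passed, with adjusted p of 0.191, 0.488 and 0.298. Without vehicle replicate 3 the VKORC1 call ended too (adjusted p = 0.0531), and that of FURIN ended without vehicle replicate 1, vehicle replicate 3 or rhSP-D replicate 1 (adjusted p = 0.0738, 0.0845 and 0.0579).

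Of 19 acute phase genes 8 were tested and 1 rose: C3, the central complement component, from 392.0 ± 3.36 to 427.9 ± 5.19 CPM, by 9.10% (adjusted p = 3.28e-05 by edgeR). Levels within this list were uneven: CRP, SAA1 and HP had 0 to 10 counts in each library, whereas FGL1 averaged 115.4 CPM in vehicle, CP 20.2, LCN2 14.9, LBP 13.1, C4BPA 11.7 and HPX 9.04, all named after their values were seen. Of 13 further plasma proteins of hepatocytes 6 were tested and 1 rose, the adhesion protein VTN, by 7.63% (adjusted p = 0.00758 by edgeR; 0.482 with length and GC trends removed). ALB, the gene of albumin, averaged 1.98 CPM with vehicle and 1.97 with rhSP-D, and RBP4, a carrier of retinol, 91.0 and 92.4 CPM.

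Of 15 liver transcription factors 13 were tested and 1 fell. HNF4A, a nuclear receptor that sustains hepatocyte genes, had 23.0, 26.9 and 27.7 CPM with vehicle and 21.4, 21.6 and 21.7 CPM after rhSP-D, without overlap. HNF4A fell by 17.5% (log2 change -0.28 ± 0.0669, SE; adjusted p = 0.00395 by edgeR), a call lost without vehicle replicate 3 (adjusted p = 0.0603).

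The IL-6 pathway, which drives fibrinogen transcription in the liver, held 12 tested genes of 13, and 2 rose and 2 fell. IL6ST, the gene of gp130, had 139.0, 130.8 and 129.4 CPM with vehicle and 110.1, 108.5 and 108.3 CPM after rhSP-D. It fell by 17.7% (log2 change -0.28 ± 0.0310, SE; adjusted p = 1.38e-07 by edgeR), without overlap and under all 17 alternatives. LIF, a cytokine that signals through gp130, fell by 6.92% (adjusted p = 0.00723), while IL11, another such cytokine, rose from 391.8 to 439.7 CPM, by 12.3% (adjusted p = 3.26e-07). IL6 itself was low, at 7.44, 4.07 and 5.42 CPM with vehicle and 7.30, 7.53 and 8.13 CPM after rhSP-D, and rose by 38.9% (adjusted p = 0.0384 by edgeR) with groups that overlapped. The IL6 call was lost whenever any library other than vehicle replicate 1 was left out, with an adjusted p of 0.223 without vehicle replicate 2, where the log2 change was 0.29 against 0.47 with all libraries. STAT3, the factor downstream, had 168.2 CPM with vehicle and 160.1 CPM after rhSP-D and was not called (adjusted p = 0.0592 by edgeR).

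**Figure D4:**
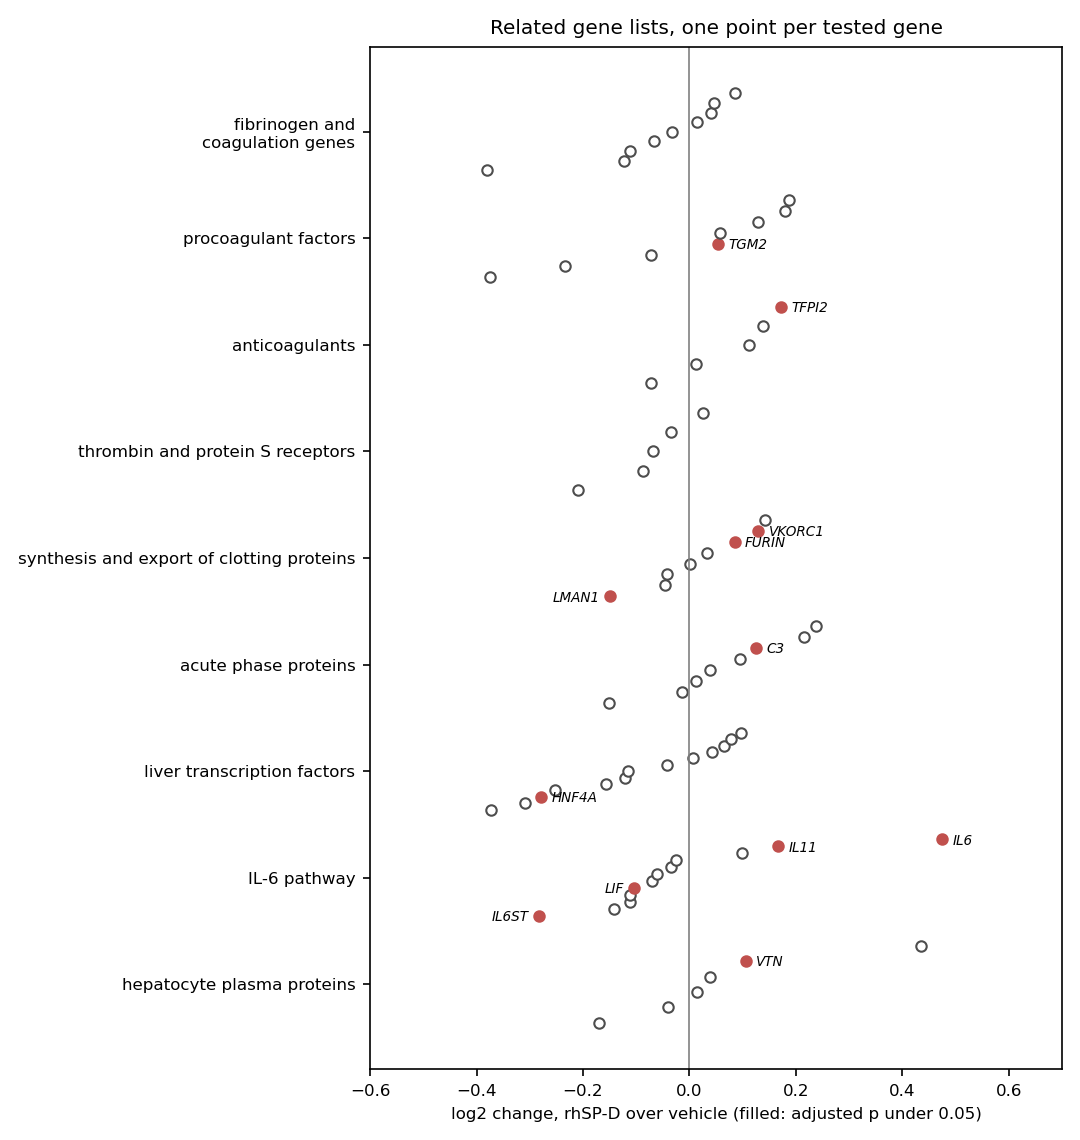
Log2 change of every tested gene of the 9 genes and of 8 related lists, rhSP-D over vehicle, one point per gene, with genes past an adjusted p of 0.05 filled and named. None of the fibrinogen and coagulation genes is filled, and the filled genes of the other lists lie from -0.28 (IL6ST) to 0.47 (IL6).

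Marker lists were read in the same fit. Of the leukocyte list 2 of 8 genes were tested and CD68, a lysosomal protein also made outside leukocytes, rose by 8.94% (adjusted p = 0.0161 by edgeR), a call lost with library totals (adjusted p = 0.114), with DESeq2 (adjusted p = 0.0597), with trends removed (adjusted p = 0.388) and without vehicle replicate 1, rhSP-D replicate 1 or rhSP-D replicate 2 (adjusted p = 0.0775, 0.0647 and 0.0821). The epithelial list had 2 rises among 6 tested genes, KRT7 by 11.5% (adjusted p = 4.43e-09) and KRT18 by 3.45% (adjusted p = 0.0131; 0.732 with library totals, 0.976 with trends removed, 0.0652 with thinned counts, and 0.0665, 0.0695 and 0.0936 without vehicle replicate 1, vehicle replicate 3 and rhSP-D replicate 1). None of the 1 endothelial, 4 platelet and 2 fibroblast genes tested was called by edgeR or stood at an unadjusted p under 0.05.

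As a description, the genes whose log2 CPM over the 6 samples ran most like the mean of the 3 chains were sought among 14371 genes. They were PARM1 (Pearson r = 0.982), MFSD5 (r = 0.981) and NUAK2 (r = 0.981), at mean levels of 1.38, 38.3 and 95.8 CPM. The 6 samples share the same treatment groups and scaling factors, and the range of the chains over them was small. How high the largest of 14371 correlations over 6 samples would run without any relation was not tested.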

How the data were processed

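Poly(A) RNA was sequenced as read pairs after Trizol extraction and an NEBNext Ultra library kit, per the labels' protocols. The submitters' processing notes name the build GRCh38 and the tools featureCounts 2.0.0, STAR 2.7.0a and cutadapt. How strand, multiply mapped reads and reads over exons of 2 genes were handled is not given in the sources used, nor is the annotation release. Reads of antisense partners may therefore be shared, and reads over shared exons may be missing. The deposited values are raw whole-number counts for each gene.

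Samples were grouped by their titles. Counts were tested with edgeR 4.0.16 in R 4.3.3 (filterByExpr, minimum count 10 and minimum total 15; TMM; robust quasi-likelihood fit, 2-sided), with Benjamini-Hochberg adjustment over 15848 genes; "rose", "fell" and "called" mean an adjusted p under 0.05. SEs come from the test statistic. Lengths are from GENCODE 29, to which 52338 of 57773 genes matched, and promoters from RefSeq. Of 163 list entries 162 matched. The 9 genes and the lists were chosen with earlier results of these data known. Named were the 9 genes, up to 4 called genes per list by smallest p, called neighbours and the 3 most alike genes; others are marked as named after their values were seen, which also holds for STAT3, ALB, RBP4 and the 3 tested neighbours. Some results are not reported here.

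Alternatives were library totals, upper-quartile factors, DESeq2 size factors, no filter, a filter of 1 CPM in 3 samples, DESeq2 1.42.0, limma-voom (limma 3.58.1), a replicate block, each library left out, splines (5 degrees of freedom) on length and GC content as offsets for the 96.8% of tested genes with both, thinning to 11396193 counts, an adjusted p under 0.01 and the longest transcript as length. The thinning was a single random draw, so calls gained or lost with it hold for that draw only. On simulated data of this comparison (15613 genes) 16% of true 1.1-fold changes were called, as were 48% of those of 1.2-fold, 78% of 1.5-fold and 92% of 2-fold. The changed genes were drawn at random among those at 1 CPM or more, and were far fewer than the genes called here. These shares therefore do not apply to single members, whose SEs ran from 0.0173 (FGA) to 0.319 (SERPINA3) on the log2 scale.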

Additional observations from a re-analysis of the deposited data

How the results depend on the processing

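The number of called members, 0 in the edgeR fit, was 0 under 13 of 17 alternatives. It ranged from 0 to 1 with 1 library left out: FGG without vehicle replicate 2 and PROS1 without rhSP-D replicate 2. It was 3 with length and GC trends removed (the 3 chains), where 1241 of 15347 tested genes were called higher and 435 lower. It was 1 with counts thinned once at random to the shallowest library (FGB, 0.07, adjusted p = 0.0392), where 952 of 14872 tested genes were called higher and 571 lower. The cause was not tested. Signs reversed for FGA and FGB with library totals (-0.0266 and -0.000678), for FGA over left-out libraries (-0.00475 to 0.0247) and for F5 and TFPI with trends removed (0.00115 and 0.0755). FGG, F3, PROS1, SERPINA1 and SERPINA3 kept their sign wherever they were fitted. SERPINA3, which did not pass the 1 CPM filter, went from -0.38 to -1.01 when thinned. DESeq2 gave F3, SERPINA1 and SERPINA3 no adjusted p.

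With the replicate number as a replicate block, 0 members were called. Deviations of same-numbered samples correlated at -0.102, -0.0757 and 0.0328 over 14374 genes, against -0.106 to 0.178 for differently numbered samples. Such correlations cannot show whether same-numbered samples shared a culture or a batch, which is not stated. Over the other lists 8 to 14 genes were called under the alternatives, against 12. With library totals the calls of all genes were 856 higher and 1961 lower, against 1475 and 1051; DESeq2 called 988 and 510, thinned counts gave 952 and 571, trends removed gave 1241 and 435, and an adjusted p under 0.01 gave 939 and 526. Leaving out vehicle replicate 3 gave 1067 and 643, and leaving out rhSP-D replicate 1 gave 1042 and 636. The summed chain level was 2393 TPM, and 2433 with the longest transcript. The count ratios kept their sign with each library left out. SERPINA3, SERPINA1 and F3 had the fewest counts of the 9 genes, at 10 to 129 per library, and the largest SEs.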
